A study of Mus musculus with 32 samples.

Results

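Figla, Nobox, Lhx8, Sohlh1 and Taf4b are transcription factors of the mouse oocyte, chosen by name as factors that act while the follicle grows. Of these 5 genes, 4 have a row among the 13175 genes of the deposited table. Sohlh1 has none and was not analysed here. RNA of 32 single oocytes, all of genotype WT, had been sequenced by a SMART-Seq method, 1 library per oocyte. Immature preantral follicles had been grown in culture, either after vitrification, which is cooling to a glass without ice, or without it as fresh controls. The 4 groups were 12 metaphase II (MII) oocytes of vitrified follicles and 12 MII oocytes of fresh follicles, both taken on day 9 after hCG, the hormone that induces ovulation, and 4 germinal vesicle (GV) oocytes of vitrified follicles and 4 GV oocytes of fresh follicles, both taken on day 8 before it. A GV oocyte is full-grown and still holds its nucleus. An MII oocyte has resumed meiosis and is ready for fertilization. The follicles were grown outside the body, and the labels name neither the strain and age of the mice nor the mouse or culture behind an oocyte. Each oocyte is a biological replicate in the labels, so p-values measure the spread between oocytes.

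As background, FIGLA is a basic helix-loop-helix factor that pairs with E proteins on the E-box motif and switches on the zona pellucida genes, which encode the coat of the egg. NOBOX and LHX8 are homeodomain proteins, LHX8 with LIM domains in addition, and mice lacking either one lose oocytes early in follicle growth. SOHLH1, with its relative SOHLH2, acts before them in the primordial follicle. TAF4B is a variant subunit of TFIID, the complex that places RNA polymerase II at promoters, and mice without it are infertile. A full-grown GV oocyte has largely stopped transcription, and during maturation its stored messages are translated, stabilised or degraded. Libraries of this kind are primed on poly(A) tails, so that a value can reflect the amount of a message and the state of its tail.

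In the GENCODE M21 annotation of GRCm38, Figla (ENSMUSG00000030001.4) lies on the plus strand at chr6:86016171-86020996, with exons that cover 836 bases together. Nobox (ENSMUSG00000029736.15) lies on the minus strand at chr6:43303674-43309554, with 2012 bases of exons. Lhx8 (ENSMUSG00000096225.7) lies on the minus strand at chr3:154306294-154330659, with 2532 bases of exons. The exons of these 3 and of Taf4b overlap those of 0 other annotated genes, so the absence of a strand setting in the labels does not mix them with a neighbour.

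The promoters of 3 members are shown because FIGLA acts through the E-box and the homeodomain factors through a TAAT core, with the promoter of Zp3, a zona pellucida gene that FIGLA controls, beside them. Each window runs from 250 bases before to 50 bases after the gene start in RefSeq's annotation of GRCm38.p6, is written 5′ to 3′ on the gene's strand, and has each E-box (CANNTG, which reads the same form on both strands) in capitals. The windows are chr6:86016941-86017240 for Figla, chr6:43309505-43309804 for Nobox, chr3:154330511-154330810 for Lhx8 and chr5:135979855-135980154 for Zp3.
Figla: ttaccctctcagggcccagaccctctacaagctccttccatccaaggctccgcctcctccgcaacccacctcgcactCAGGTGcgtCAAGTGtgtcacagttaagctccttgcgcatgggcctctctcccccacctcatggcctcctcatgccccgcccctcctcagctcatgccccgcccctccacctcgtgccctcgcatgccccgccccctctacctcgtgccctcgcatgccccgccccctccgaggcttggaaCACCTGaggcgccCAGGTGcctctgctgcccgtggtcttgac
Nobox: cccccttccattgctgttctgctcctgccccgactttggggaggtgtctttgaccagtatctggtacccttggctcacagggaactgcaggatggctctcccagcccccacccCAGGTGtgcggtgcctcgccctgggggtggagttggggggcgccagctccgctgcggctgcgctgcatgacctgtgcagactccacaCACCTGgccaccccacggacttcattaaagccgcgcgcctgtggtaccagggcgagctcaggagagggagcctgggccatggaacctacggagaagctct
Lhx8: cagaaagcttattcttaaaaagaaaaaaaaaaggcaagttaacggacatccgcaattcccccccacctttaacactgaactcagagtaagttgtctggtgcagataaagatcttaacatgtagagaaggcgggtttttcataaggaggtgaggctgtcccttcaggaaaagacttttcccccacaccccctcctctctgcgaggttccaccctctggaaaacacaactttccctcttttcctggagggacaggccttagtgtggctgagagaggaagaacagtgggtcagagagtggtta
Zp3: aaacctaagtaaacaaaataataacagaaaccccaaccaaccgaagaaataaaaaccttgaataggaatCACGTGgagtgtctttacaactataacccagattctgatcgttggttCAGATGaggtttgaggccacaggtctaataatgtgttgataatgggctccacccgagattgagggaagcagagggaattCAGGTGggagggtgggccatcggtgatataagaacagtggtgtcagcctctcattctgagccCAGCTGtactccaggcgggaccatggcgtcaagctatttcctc

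The Figla window has 4 E-boxes, which begin at positions -173, -164, 9 and 22 from the RefSeq gene start. This window lies wholly within the GENCODE span of Figla given above, as the annotations place the start of the gene differently. The Nobox window has 2, at -137 and -50, and both are of the form CAGGTG or its reverse complement CACCTG. The Lhx8 window has 0. The Zp3 window has 4, a CACGTG at -181, a CAGATG at -134, a CAGGTG at -55 and a CAGCTG at 8. An E-box of any form is in 72.3% of the 32851 mouse promoter windows of the same length, and CAGGTG or CACCTG is in 20.2% of them. TAATTA or TAATTG, searched on both strands, is in 0 of the 4 windows printed and in 12.4% of all windows. These are matches of letters and not measured binding.

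The ends of the messages are shown because the polyadenylation signal and the cytoplasmic polyadenylation element lie there, the second of which lengthens tails and starts translation in the maturing oocyte. Each 30-base stretch below ends with the last AATAAA or ATTAAA signal of the GENCODE M21 transcript, 5′ to 3′ with DNA letters, and has that signal and any TTTTAT element in capitals. The first 3 are members, Zp3 and Npm2 are oocyte genes that were lower in MII oocytes, and Gdf9 and Nlrp4f are oocyte genes that were higher.
Figla: tgagtatttttcatgtaaaatataATTAAA
Nobox: ccatcctaggcagtgcatgcAATAAATAAA
Lhx8: tacaaagcctaccatcctaagttcATTAAA
Zp3: cttcctaccttgtatcccttccgcAATAAA
Npm2: cccagcaagctcgcctagggccacAATAAA
Gdf9: tgctgtggTTTTATgtgacggaagAATAAA
Nlrp4f: aattgctgctgttttgtgTTTTATATTAAA

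In the last 100 bases, TTTTAT or TTTTAAT occurs 0 times in the transcripts of Figla, Nobox, Lhx8 and Taf4b. It occurs 1 time in Gdf9 and 1 time in Nlrp4f, but 0 times in Bmp15 and Kit, oocyte genes that were also higher. Of 11352 genes tested and matched to a transcript, 19.7% have it in this window, so its absence is common.

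Depth, the sum of the table's values per oocyte, ran from 5300208 to 12206512 in the 24 MII oocytes and from 10357543 to 17687247 in the 8 GV oocytes. Levels are given as CPM (counts scaled to 1000000 reads in the table) scaled by TMM, a correction for differences in RNA make-up between libraries. The 11 oocyte markers were all detected in each group and summed to between 37820 and 95470 CPM in MII oocytes and between 19590 and 34680 CPM in GV oocytes, which is what the labelled cell type calls for. Markers of granulosa and cumulus cells, the somatic cells around the oocyte, had 19 of 23 genes in the table and summed to 64.6 to 3147 CPM in MII oocytes and 68.8 to 138.3 CPM in GV oocytes. The 2 highest sums were in fresh MII replicate 11, at 3147 CPM, and vitrified MII replicate 12, at 556.7 CPM. Of 12 markers of theca, stroma and blood cells, 4 were in the table, and their sums were 35.8 to 111.5 CPM in MII oocytes and 8.10 to 23.3 CPM in GV oocytes. Pecam1 made up most of these sums, at 68.7 and 60.9 CPM in vitrified and fresh MII oocytes and 14.8 and 12.0 CPM in vitrified and fresh GV oocytes, while Dcn averaged under 4 CPM and Col1a1 was near 0 in each group. The part of these transcripts in the stage differences was not tested. The stage calls on the members were the same without 4 oocytes with cumulus transcripts. These were fresh MII replicates 1 and 11 and vitrified MII replicates 1 and 12. Vitrified MII replicate 7, with a sum of 234.8 CPM, was kept, although fresh and vitrified MII replicate 1 had 181.9 and 171.2 CPM. All the MII values in the table come from libraries numbered 25 or lower and all the GV values from libraries numbered 81 or higher. The MII values are also partly fractional while the GV values are whole, so stage cannot be told apart from these features of the libraries.

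Figla, Nobox and Lhx8 fell in MII oocytes against GV oocytes, in vitrified and in fresh follicles alike, and Taf4b passed the test in neither. The log2 difference of Figla, the largest of the 4, was -6.44 ± 0.58 (SE) in vitrified follicles and -6.40 ± 0.57 in fresh ones. That of Nobox was -2.03 ± 0.27 in vitrified follicles and -1.68 ± 0.27 in fresh ones, and that of Lhx8 was -1.82 ± 0.26 in vitrified follicles and -1.92 ± 0.26 in fresh ones. Calls are at an adjusted p under 0.05 in edgeR's quasi-likelihood test with Benjamini-Hochberg adjustment over all 11470 genes tested. Among these genes 33.7% fell in the vitrified comparison and 29.8% in the fresh one, so a fall as such is common.

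**Figure D1:**
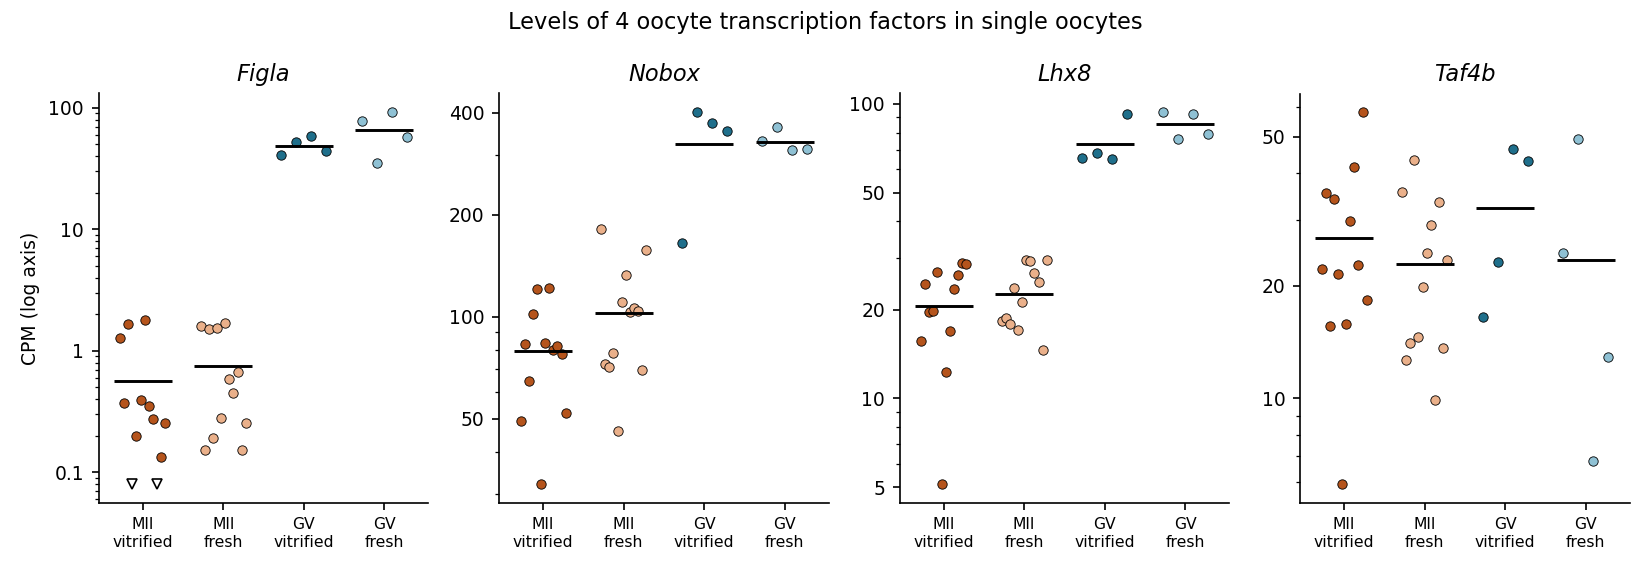
CPM on log axes, 1 point per oocyte, for Figla, Nobox, Lhx8 and Taf4b in 12 vitrified MII, 12 fresh MII, 4 vitrified GV and 4 fresh GV oocytes; bars are group means and open triangles mark 2 oocytes at 0. Figla lies at or below 1.78 CPM in MII oocytes and at or above 35.2 CPM in GV oocytes, while Taf4b covers the same range at both stages.

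Figla, the zona gene regulator, was close to the limit of detection in MII oocytes. In MII oocytes of vitrified follicles it had counts from 0 to 14, or from 0 to 1.78 CPM with a median of 0.314 CPM, against 40.8, 52.2, 58.8 and 44.1 CPM in GV oocytes of vitrified follicles. In MII oocytes of fresh follicles it had counts from 1 to 14, or from 0.154 to 1.70 CPM with a median of 0.521 CPM, against 77.9, 35.2, 92.2 and 57.3 CPM in GV oocytes of fresh follicles. Every MII oocyte was below every GV oocyte of the same treatment. A count of 3, the floor that a count of 0 allows, equals 0.274 to 0.668 CPM in these vitrified MII libraries and 0.289 to 0.462 CPM in the fresh ones. Figla had 3 counts or fewer in 9 of 12 vitrified MII oocytes and in 6 of 12 fresh MII oocytes. Group means were 0.560 ± 0.637 CPM in vitrified MII, 0.757 ± 0.633 CPM in fresh MII, 48.9 ± 8.11 CPM in vitrified GV and 65.6 ± 24.8 CPM in fresh GV oocytes (SD, n = 12, 12, 4 and 4).

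The fitted difference of Figla had a 95% interval of -7.62 to -5.26 in vitrified follicles (edgeR adjusted p = 1.58e-11) and of -7.56 to -5.25 in fresh ones (edgeR adjusted p = 1.38e-11). Counted from the lowest fold change of 11470 genes, Figla was 211th in vitrified follicles, within the lowest 1.84%, and 102nd in fresh ones, within the lowest 0.889%. Such ranks compare genes of unequal precision. No gene of the table summed to under 10 over the MII oocytes, so genes lost more fully there may have no row and no rank.

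The Figla counts left in MII oocytes were spread unevenly over 2 runs of library numbers. In libraries numbered under 20, Figla summed to 35 counts over 7 vitrified MII oocytes and 56 counts over 7 fresh ones, with 8 to 14 counts in 3 oocytes of the vitrified group and 11 to 14 counts in 4 of the fresh group. In libraries numbered 20 and over it summed to 7 counts over 5 vitrified MII oocytes and 15 counts over 5 fresh ones, with at most 2 counts and 5 counts per oocyte. Set against all GV oocytes of the same treatment, Figla had a log2 difference of -5.86 (vitrified) and -6.01 (fresh) with the lower-numbered MII libraries alone, and of -7.80 (vitrified) and -7.16 (fresh) with the higher-numbered ones alone, each past the threshold in edgeR. What sets the library numbers is not given in the labels, and its part in these counts was not tested.

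Nobox, the homeodomain factor, had the highest level per length of the members at both stages. In MII oocytes of vitrified follicles it ranged from 32.1 to 121 CPM with a median of 81.1 CPM, against 165.4, 401, 373 and 353 CPM in GV oocytes of vitrified follicles. In MII oocytes of fresh follicles it ranged from 46.1 to 182 CPM with a median of 104 CPM, against 330, 363, 309.9 and 312 CPM in GV oocytes of fresh follicles. The groups did not overlap within a treatment, and vitrified GV replicate 1, at 165.4 CPM, was the only GV oocyte within the range of MII oocytes of the other treatment. The interval of the difference was -2.58 to -1.49 in vitrified follicles (edgeR adjusted p = 5.47e-08) and -2.22 to -1.13 in fresh ones (edgeR adjusted p = 2.62e-06).

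Lhx8, the LIM homeodomain factor, ranged from 5.12 to 28.9 CPM with a median of 21.6 CPM in MII oocytes of vitrified follicles, against 65.7, 68.1, 64.9 and 92.8 CPM in GV oocytes of vitrified follicles. It ranged from 14.6 to 29.5 CPM with a median of 22.5 CPM in MII oocytes of fresh follicles, against 93.9, 76.2, 92.5 and 79.3 CPM in GV oocytes of fresh follicles. Here too every MII oocyte was below every GV oocyte, and the lowest value of all was that of vitrified MII replicate 6, which was also the lowest oocyte for Nobox and Taf4b. The interval was -2.34 to -1.29 in vitrified follicles (edgeR adjusted p = 2.42e-07) and -2.44 to -1.39 in fresh ones (edgeR adjusted p = 9.71e-08). A group of MII oocytes wholly below the GV oocytes was seen for 20.7% of all genes in vitrified follicles and for 18.5% in fresh ones, against which 3 of the 4 members stand.

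Taf4b (ENSMUSG00000054321.7), the TFIID variant, lies on the plus strand at chr18:14783245-14900359, with 5149 bases of exons. It ranged from 5.90 to 58.2 CPM with a median of 22.4 CPM in MII oocytes of vitrified follicles, against 16.5, 23.1, 46.3 and 42.9 CPM in GV oocytes of vitrified follicles. It ranged from 9.93 to 43.2 CPM with a median of 21.6 CPM in MII oocytes of fresh follicles, against 24.5, 49.4, 6.82 and 12.9 CPM in GV oocytes of fresh follicles. The stages overlapped throughout. The difference was -0.27 ± 0.44 (SE, interval -1.16 to 0.62, edgeR adjusted p = 0.627) in vitrified follicles and -0.04 ± 0.44 (interval -0.94 to 0.86, edgeR adjusted p = 0.953) in fresh ones. These intervals exclude a fall as large as that fitted for Nobox or Lhx8 but leave room for a smaller change in either direction. The median difference of all genes was -0.34 in vitrified and -0.23 in fresh follicles, close to which Taf4b lies.

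**Figure D2:**
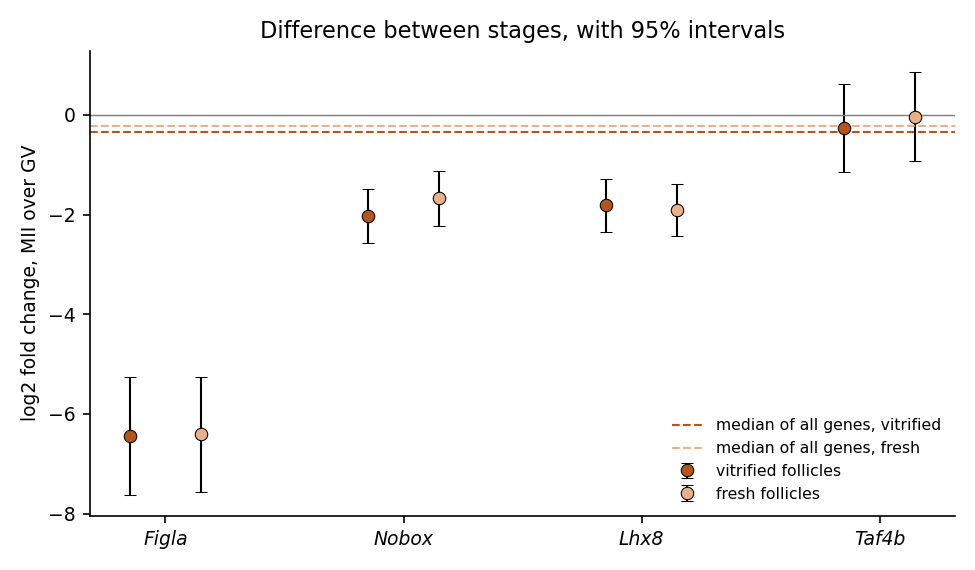
Log2 fold change of MII over GV oocytes with 95% intervals from edgeR, for vitrified follicles (left of each pair) and fresh follicles; dashed lines mark the median of all 11470 genes. The points of Figla lie at -6.44 and -6.40, those of Nobox and Lhx8 between -2.03 and -1.68, and those of Taf4b at -0.27 and -0.04.

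A ratio of 2 genes within an oocyte does not depend on the scaling of libraries, so the 6 pairs of members were compared between stages in each treatment, 12 comparisons in all. On log2(count + 0.5), the ratio of Figla to Nobox averaged -7.49 ± 1.70 in vitrified MII and -2.66 ± 0.45 in vitrified GV oocytes (SD, n = 12 and 4), a difference of -4.83. In fresh follicles it averaged -7.30 ± 1.26 in MII and -2.41 ± 0.70 in GV oocytes, a difference of -4.89. Both had p = 0.0011 in a two-sided exact permutation test, the smallest that the 1820 relabelings can give, and an adjusted p of 0.00188. The level of Figla relative to Nobox was thus lower in MII than in the separately collected GV oocytes, and its ratios to Lhx8 (-4.95 in vitrified and -4.71 in fresh follicles) and to Taf4b (-6.53 and -6.85) differed between stages at the same p.

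The ratio of Nobox to Lhx8 did not pass the test, with stage differences of -0.12 in vitrified and 0.18 in fresh follicles. It averaged 1.96 ± 0.60 in vitrified MII and 2.08 ± 0.58 in vitrified GV oocytes, and 2.12 ± 0.46 in fresh MII and 1.94 ± 0.22 in fresh GV oocytes (adjusted exact permutation p = 0.741 and 0.547). The ratio of Nobox to Taf4b differed by -1.70 in vitrified and -1.96 in fresh follicles, MII minus GV, and that of Lhx8 to Taf4b by -1.58 and -2.14, with adjusted exact permutation p-values from 0.00188 to 0.00264. The members thus ordered as Figla, then Nobox and Lhx8 without a difference that passed the test, then Taf4b.

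**Figure D3:**
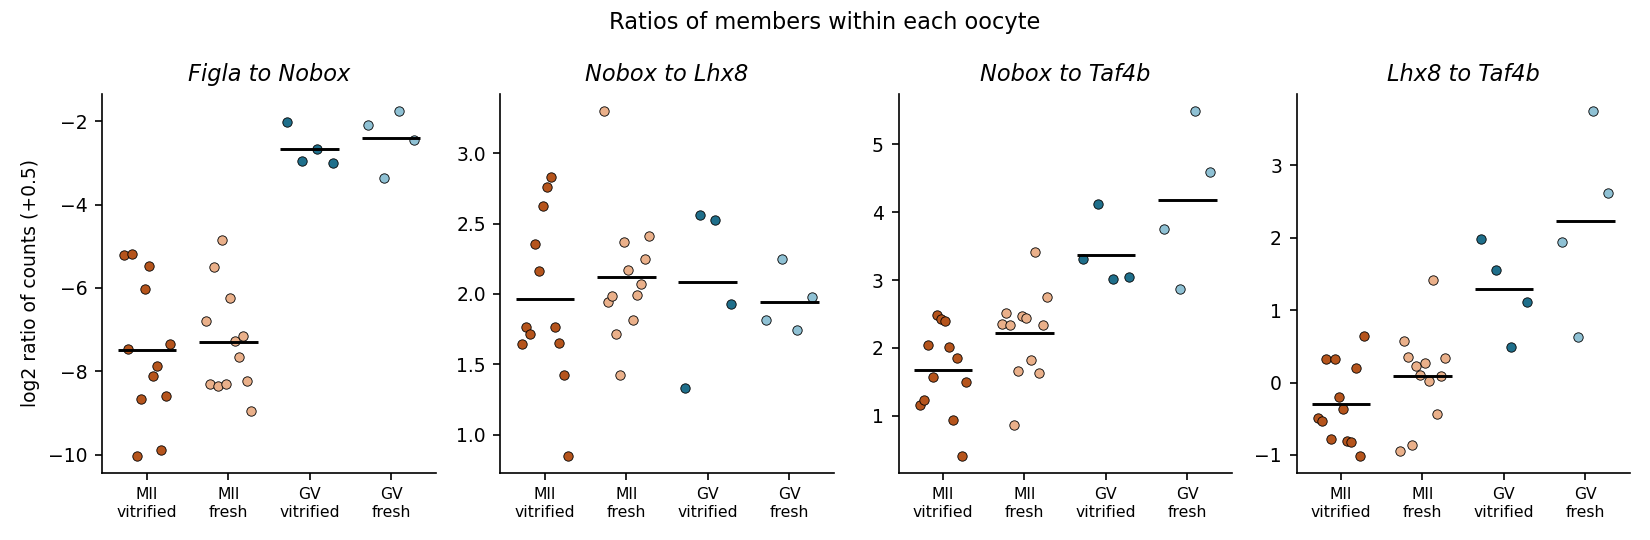
Log2 ratio of the counts of 2 members within each oocyte (0.5 added to each), 1 point per oocyte, bars at the group mean, for vitrified MII, fresh MII, vitrified GV and fresh GV oocytes. The Figla to Nobox ratio is at or below -4.86 in each MII oocyte and at or above -3.36 in each GV oocyte, while the Nobox to Lhx8 ratios of the stages overlap.

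Per kilobase of exon, the order of the levels changed with stage. In MII oocytes of vitrified follicles Nobox had 39.3 ± 13.5, Lhx8 8.16 ± 2.86, Taf4b 5.19 ± 2.72 and Figla 0.669 ± 0.762 CPM per kilobase (SD, n = 12). In MII oocytes of fresh follicles these 4 genes had 51.1 ± 19.6, 8.94 ± 2.11, 4.43 ± 2.06 and 0.905 ± 0.758. In GV oocytes of vitrified follicles Nobox had 161 ± 53.2, Figla 58.5 ± 9.70, Lhx8 28.8 ± 5.28 and Taf4b 6.26 ± 2.84 CPM per kilobase (SD, n = 4). In GV oocytes of fresh follicles these 4 had 163 ± 12.2, 78.5 ± 29.7, 33.8 ± 3.56 and 4.54 ± 3.65 in the same order. Figla was thus last in MII and second in GV oocytes, and Lhx8 and Taf4b in vitrified MII oocytes differed by about 1 SD.

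Vitrification of the follicle was the study's own question, and for the members no difference passed the test at either stage. In GV oocytes, vitrified against fresh, edgeR called 0 of 10831 genes (0%; 180, or 1.66%, at an unadjusted p under 0.05, and 0 with DESeq2). Figla differed by -0.41 ± 0.35 on the log2 scale (SE, interval -1.18 to 0.35), Nobox by -0.01 ± 0.30 (-0.67 to 0.64), Lhx8 by -0.22 ± 0.28 (-0.83 to 0.39) and Taf4b by 0.47 ± 0.57 (-0.76 to 1.69), each with an edgeR adjusted p of 0.999972. The vitrified and fresh GV oocytes overlapped for all 4, where 1.36% of genes had every vitrified oocyte below and 0.692% every one above the fresh ones. Differences within those intervals remain possible, and the interval was widest for Taf4b. Leaving out fresh GV replicate 2, which had 49.4 CPM, gave 1.12 for Taf4b, and leaving out vitrified GV replicate 1, which had 165.4 CPM, gave 0.20 for Nobox.

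In MII oocytes, vitrified against fresh, edgeR called 0 of 8428 genes (0%; 1053, or 12.5%, at an unadjusted p under 0.05, and 52 with DESeq2, members among neither). Nobox averaged 79.0 ± 27.2 CPM in vitrified and 103 ± 39.4 CPM in fresh MII oocytes (SD, n = 12 each), a difference of -0.38 ± 0.21 (SE, interval -0.81 to 0.05, unadjusted p = 0.0838, adjusted p = 0.456 in edgeR). It was -0.37 within the libraries numbered under 20 and -0.40 within those numbered 20 and over. Without the 4 oocytes left out for cumulus transcripts, a setting chosen after the data were seen, it was -0.20. In 2 planned settings it was larger, at -0.50 with total counts only and -0.44 with a stricter filter. Unadjusted p was 0.0386 and 0.0484 there, and adjusted p 0.374 in both, in edgeR. Lhx8 averaged 20.7 ± 7.23 CPM in vitrified and 22.6 ± 5.34 CPM in fresh MII oocytes, a difference of -0.13 ± 0.21 (interval -0.56 to 0.31, edgeR adjusted p = 0.836). Taf4b averaged 26.7 ± 14.0 CPM in vitrified and 22.8 ± 10.6 CPM in fresh MII oocytes, a difference of 0.23 ± 0.28 (interval -0.35 to 0.81, edgeR adjusted p = 0.771), which was -0.13 within the lower library numbers and 0.63 within the higher ones. Figla was too low for the test among MII oocytes. In the fit of all 32 oocytes its difference was -0.46 ± 0.50 (SE, edgeR adjusted p = 0.798), from 42 counts over 12 vitrified and 71 counts over 12 fresh MII oocytes.

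Whether the stage difference itself depended on vitrification was tested as an interaction, for which edgeR called 0 of 11470 genes (0%; 467, or 4.07%, at an unadjusted p under 0.05, and 8 with DESeq2). The difference of the stage differences, vitrified minus fresh, was -0.03 ± 0.68 (SE, interval -1.41 to 1.35) for Figla, -0.36 ± 0.41 (-1.19 to 0.48) for Nobox, 0.10 ± 0.39 (-0.70 to 0.90) for Lhx8 and -0.23 ± 0.63 (-1.51 to 1.04) for Taf4b, each with an edgeR adjusted p of 0.999981.

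Among the MII oocytes the members varied together to some degree. With the treatment mean subtracted, log2 CPM over 24 MII oocytes had a Pearson r of 0.632 (Spearman rho 0.472) between Lhx8 and Taf4b, of 0.557 (rho 0.417) between Nobox and Taf4b, and of 0.538 (rho 0.340) between Nobox and Lhx8. Without the 2 oocytes farthest from the median of the first gene of each pair, r was 0.352, 0.358 and 0.231, so a large part rests on them. Figla had r between -0.293 and -0.0833 with the others. The members of a library also share its depth, taken here as the log2 of its TMM-scaled total with the treatment mean subtracted. With this measure Taf4b had r of 0.388 in 24 MII oocytes and of 0.861 in 8 GV oocytes. For Nobox r was -0.222 and 0.703, for Lhx8 0.18 and -0.0382, and for Figla -0.0521 and -0.248. The part of depth in the spread of the members was not tested.

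The genes most like each member in pattern over all 32 oocytes, among the 4693 genes whose log2 CPM averaged 4 or more, were Lipt1, Car9 and Ube2a for Figla (Pearson r of 0.966, 0.958 and 0.956), Gja4, Noc4l and Dedd for Nobox (0.915, 0.911 and 0.901), Rab22a, Dedd and Dnajc11 for Lhx8 (0.913, 0.912 and 0.910) and Rassf5, Tti1 and Rubcn for Taf4b (0.752, 0.749 and 0.745). For the first 3 members these correlations span the difference between the stages. Gja4 encodes a connexin of the junctions between oocyte and granulosa cells. Within the 24 MII oocytes, with the treatment mean subtracted, the nearest genes were Noc4l, Mtmr14 and Rab32 for Nobox (0.722, 0.694 and 0.684), Rbm15b, Usp48 and Wdr48 for Lhx8 (0.821, 0.820 and 0.813) and Oaz2, Myo1c and Psme3 for Taf4b (0.846, 0.818 and 0.818). Noc4l is named for Nobox by both measures.

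The dimer and cofactor partners of the members, listed with other factors of the early oocyte, included genes called in each direction. Of 21 such genes tested, 8 rose, 6 fell and 7 did not pass in MII against GV oocytes of vitrified follicles, and 7 rose, 3 fell and 11 did not pass in fresh ones, where 23.3% (vitrified) and 22.8% (fresh) of all genes rose and 33.7% and 29.8% fell. The share of the list that fell was below that of all genes in both, and the share that rose was above that of all genes. The median of the list was 0.65 in vitrified and 0.29 in fresh follicles. With total counts alone as the scale, 5 rose and 8 fell in vitrified follicles and 5 rose and 6 fell in fresh ones. Of all 11470 genes, 1945 rose and 4703 fell on that scale in vitrified follicles, and 1992 rose and 4142 fell in fresh ones.

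Sohlh2, the relative that pairs with SOHLH1, went against Figla, Nobox and Lhx8. It averaged 35.9 ± 16.5 CPM in vitrified MII and 7.11 ± 8.29 CPM in vitrified GV oocytes (log2 difference 2.33, edgeR adjusted p = 0.0118, and 0.0540 with total counts alone as the scale), and 30.1 ± 23.4 CPM in fresh MII and 4.86 ± 2.68 CPM in fresh GV oocytes (2.64 ± 0.81, SE, edgeR adjusted p = 0.00629). Tcf3, which encodes the E proteins that pair with FIGLA, averaged 26.2 ± 15.6 CPM in vitrified MII and 11.5 ± 7.71 CPM in vitrified GV oocytes, and 30.7 ± 13.2 CPM in fresh MII and 10.3 ± 3.69 CPM in fresh GV oocytes (log2 difference 1.19 and 1.57, edgeR adjusted p = 0.0382 and 0.00895). Both calls on Tcf3 were lost with total counts alone as the scale (0.264 and 0.0684), and the first also with RLE scaling (0.0556). Tcf12, another E protein, had a log2 difference of 1.22 in vitrified follicles (edgeR adjusted p = 0.0264, and 0.180 with total counts alone) and of 0.74 in fresh ones (0.177). Tcf4, the other E protein of the list, which was named here after its values were seen, had differences of 0.58 in vitrified and -0.28 in fresh follicles (edgeR adjusted p = 0.132 and 0.465).

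Ldb1, the adaptor that binds the LIM domains of factors such as LHX8, fell as Lhx8 did. It averaged 12.3 ± 5.41 CPM in vitrified MII and 53.9 ± 36.9 CPM in vitrified GV oocytes, and 16.5 ± 4.04 CPM in fresh MII and 59.5 ± 26.5 CPM in fresh GV oocytes, with log2 differences of -2.13 and -1.85 (edgeR adjusted p = 1.29e-05 and 1.09e-04). Its relative Ldb2, singled out after its values were seen, had 0 counts in each of the 4 vitrified GV oocytes and averaged 4.40 ± 2.64 CPM in vitrified MII oocytes, at least 16.4-fold higher against a floor of 3 counts in the shallowest of those GV libraries. In fresh follicles Ldb2 averaged 4.35 ± 2.59 CPM in MII and 0.590 ± 1.08 CPM in GV oocytes.

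Foxo3, which holds primordial follicles dormant, averaged 57.0 ± 11.4 CPM in vitrified MII and 5.97 ± 2.55 CPM in vitrified GV oocytes, and 67.0 ± 18.8 CPM in fresh MII and 10.1 ± 5.60 CPM in fresh GV oocytes (log2 difference 3.25 and 2.72, edgeR adjusted p = 4.85e-10 and 1.20e-08). Dynll1, a dynein light chain, fell, with log2 differences of -3.92 in vitrified and -4.11 in fresh follicles. Stat3, a cytokine-responsive transcription factor, rose by 1.71 in vitrified and 1.65 in fresh follicles. Tbpl2, the TBP relative that takes the place of TBP in growing mouse oocytes, had a log2 difference of 0.66 in vitrified (edgeR adjusted p = 0.126) and of 1.02 in fresh follicles (0.0214, and 0.0558 with RLE scaling).

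Of the subunits of TFIID other than Taf4b, listed with the TBP relatives Tbpl1 and Tbpl2, more rose than fell. Tbpl1 is among the genes that rose in both treatments and Tbpl2, which is also on the list of partners, among those in fresh follicles. Of 18 genes tested, 11 rose, 2 fell and 5 did not pass in vitrified follicles, with a median of 0.69, and the counts were the same in fresh ones, with a median of 0.78, where the median of all genes was -0.34 and -0.23. Of all genes, 23.3% rose and 33.7% fell in vitrified and 22.8% rose and 29.8% fell in fresh follicles. With RLE scaling 9 and 8 of the 18 rose, and with total counts alone as the scale 8 and 7, with 2 that fell in each. Of all 11470 genes, RLE scaling gave 2536 that rose and 4037 that fell in vitrified follicles, and 2373 and 3698 in fresh ones. Total counts alone gave 1945 and 4703 in vitrified follicles, and 1992 and 4142 in fresh ones. Taf4, the general form of the TAF4B subunit, averaged 40.2 ± 4.58 CPM in vitrified MII and 19.4 ± 2.47 CPM in vitrified GV oocytes, and 45.3 ± 7.69 CPM in fresh MII and 21.4 ± 7.28 CPM in fresh GV oocytes. It rose by 1.05 in vitrified and by 1.08 in fresh follicles (edgeR adjusted p = 8.42e-05 and 6.71e-05), under each of the scalings tried. Whether Taf4 differed from Taf4b in its stage difference was not tested.

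Taf6, which pairs with TAF9 in the core of the complex, rose by 3.54 in vitrified and by 2.92 in fresh follicles, while Taf9 itself had differences of -3.47 and -2.70 (edgeR adjusted p from 1.58e-14 to 1.08e-06). Taf9b, also on the list and named here after its values were seen, rose by 1.93 and 1.74 (edgeR adjusted p = 1.98e-06 and 1.06e-05). Taf2 rose by 2.23 and 2.78 and Taf13 by 2.36 and 1.90. Tbp, the TATA-binding subunit, had a log2 difference of 0.72 in vitrified (edgeR adjusted p = 0.0451, and 0.0908 with RLE scaling) and of 0.66 in fresh follicles (0.0689).

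Genes recorded in mouse as targets of FIGLA, NOBOX, LHX8 or SOHLH1, or as lower without them, included genes called in each direction. Of 28 tested, 14 rose, 9 fell and 5 did not pass in vitrified follicles, with a median of 0.66, and the counts were the same in fresh ones, with a median of 0.63. Beside the 23.3% and 22.8% of all genes that rose and the 33.7% and 29.8% that fell, the share of the list that fell was close to that of all genes. The share of the list that rose was above that of all genes in both treatments, and the median of all genes was -0.34 and -0.23. With total counts alone as the scale, 9 rose and 10 fell in each treatment. On that scale 1945 of all 11470 genes rose and 4703 fell in vitrified follicles, and 1992 rose and 4142 fell in fresh ones. The 3 zona pellucida genes under FIGLA fell together. Zp1 averaged 98.1 ± 35.8 CPM in vitrified MII and 411 ± 192 CPM in vitrified GV oocytes, and 181 ± 133 CPM in fresh MII and 486 ± 227 CPM in fresh GV oocytes. Zp2 averaged 159 ± 46.4 CPM in vitrified MII and 1192 ± 412 CPM in vitrified GV oocytes, and 205 ± 136 CPM in fresh MII and 976 ± 309.8 CPM in fresh GV oocytes. Zp3 averaged 297 ± 71.7 CPM in vitrified MII and 1250.0 ± 126 CPM in vitrified GV oocytes, and 442 ± 198 CPM in fresh MII and 1669.5 ± 868 CPM in fresh GV oocytes. The log2 differences of Zp1, Zp2 and Zp3 were -2.07, -2.91 and -2.07 in vitrified follicles and -1.43, -2.25 and -1.92 in fresh ones, each past the edgeR threshold.

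Gdf9 and Bmp15, the growth factors that the oocyte sends to its granulosa cells and that NOBOX is recorded to control, went the other way. Gdf9 averaged 6783 ± 1013.5 CPM in vitrified MII and 2448 ± 925 CPM in vitrified GV oocytes, and 5448 ± 1344 CPM in fresh MII and 3247 ± 1261 CPM in fresh GV oocytes (log2 difference 1.47 and 0.75, edgeR adjusted p = 4.11e-06 and 0.00738, the second 0.277 with total counts alone as the scale). Bmp15 averaged 2195 ± 886 CPM in vitrified MII and 1052 ± 232 CPM in vitrified GV oocytes, and 1821 ± 593 CPM in fresh MII and 1029 ± 233 CPM in fresh GV oocytes (1.06 and 0.82, edgeR adjusted p = 0.00187 and 0.0138, and 0.0620 and 0.194 with total counts alone as the scale).

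The genes of this list with the smallest p in fresh follicles were Npm2, Nlrp4f, Ooep and Rfpl4. Npm2, which encodes the nucleoplasmin that remodels chromatin after fertilization, had log2 differences of -3.22 in vitrified and -3.36 in fresh follicles, and Ooep, of the subcortical maternal complex, of -2.99 and -3.31. Nlrp4f rose by 2.57 and 2.96, and Rfpl4 by 2.87 and 2.81. Nlrp4f belongs to a family of near-identical copies, between which counting can split reads, so its value is uncertain. Exons of Ldb1, Stat3, Taf4, Taf6, Tbp and Tbpl1 overlap those of another annotated gene on the opposite strand. Exons of Npm2 and Taf9 overlap those of Xpo7 and Ak6 on the same strand. Reads there may be counted for either gene, and those values are uncertain to that extent. For vitrified against fresh follicles, 0 genes of each of the 3 lists were called at either stage.

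**Figure D4:**
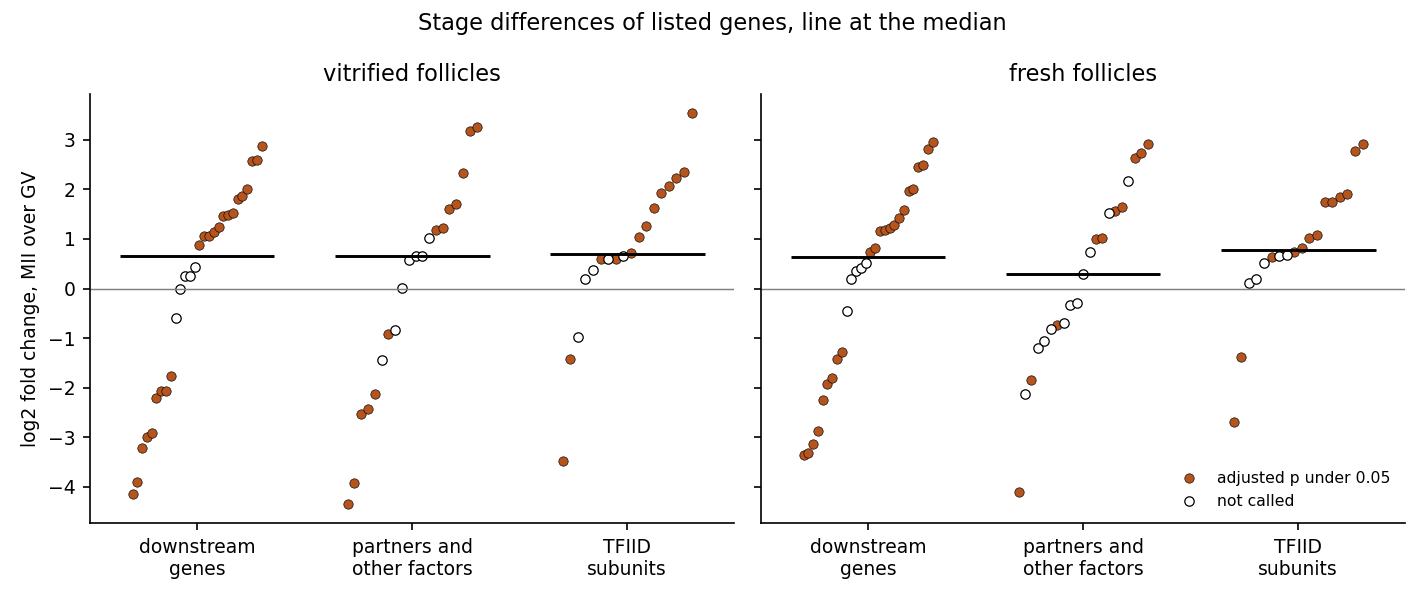
Log2 fold change of MII over GV oocytes for each tested gene of 3 lists, vitrified follicles on the left and fresh on the right. The lists are 28 downstream genes, 21 partners and other factors, and 18 TFIID subunits and TBP relatives. Points are filled where the edgeR adjusted p was under 0.05, and lines mark the list medians. Ldb2 in vitrified follicles, which had 0 counts in the GV group, is not drawn, and downstream and partner genes lie on both sides of 0.

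The element shown in capitals in the message ends of Gdf9 and Nlrp4f was counted over all genes. In the last 100 bases of the transcript, TTTTAT or TTTTAAT was present in 31.8% of 2659 genes that rose, 10.7% of 3804 that fell and 20% of 4889 not called in vitrified follicles. In fresh follicles these shares were 30.5% of 2596, 10.9% of 3360 and 19.8% of 5396. Figla, Nobox, Lhx8 and Taf4b are without the element in this window, as are most genes that rose, fell or were not called. Among the downstream genes matched to a transcript it was present in 6 of 13 that rose in fresh follicles and in 0 of 9 that fell, and H1f8, which also rose, was not matched. It was present in 2 of 7 partners that rose and 1 of 3 that fell. In the list of TFIID subunits and TBP relatives it was present in 3 of 11 that rose and 0 of 2 that fell. In the message of Sohlh2, which rose, it occurs 2 times. These shares are a description with no test, and annotated ends need not be those used in the oocyte.

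**Figure D5:**
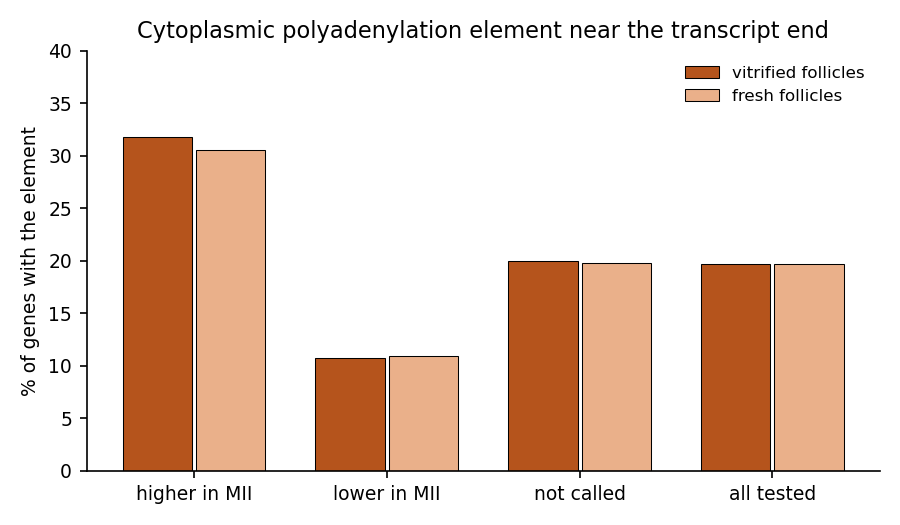
Percent of genes with TTTTAT or TTTTAAT in the last 100 bases of the GENCODE M21 transcript, by edgeR call of MII against GV oocytes, for vitrified and fresh follicles. The share is 31.8% and 30.5% among genes higher in MII oocytes and 10.7% and 10.9% among genes lower in them, against 19.7% of all 11352 genes matched.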

How the data were processed

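Per the submitters' processing notes, HISAT2, featureCounts and the build mm10 were used, without versions or settings. The deposited GV values are whole, as counts are. The deposited MII values resemble expected counts (estimated counts): in each oocyte between 11.4% and 19.4% were fractional, and the labels name no step behind this. All values were rounded and taken as counts. Of 13202 entries, 27 exact repeats were removed, which left 13175 genes. The smallest sum over MII oocytes was 10, while 376 genes had no count in any GV oocyte. Genes absent from MII oocytes may thus lack a row, and the ranks and the shares of genes that fell leave them out.

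Counts were tested with edgeR 4.0.16 in R 4.3.3 (quasi-likelihood test, TMM scaling, filterByExpr with a minimum count of 10 and total of 15, Benjamini-Hochberg threshold 0.05). GV and MII oocytes were fitted apart for vitrified against fresh follicles, and all 32 together, with 4 group means, for the stage differences and the interaction. DESeq2 1.42.0 and limma 3.58.1 (voom) served as alternatives, with other scalings, filters and left-out oocytes. CPM used the TMM scale of the fit of all oocytes. Correlations used log2 CPM with a prior count of 2. Ratios were compared by two-sided exact permutation (SciPy 1.17.1). Intervals are at 95%, and floors of 3 counts cover counting error only. The scripts were tested on simulated counts with known changes. For vitrified against fresh GV oocytes, edgeR recovered 0% of 2-fold and 32% of 4-fold changes, so 0 calls there do not show that differences are absent. It recovered 64% and 93% for vitrified against fresh MII oocytes, and 17% and 67% for fresh MII against GV oocytes. Sequences came from RefSeq (promoters, GRCm38.p6; 4 of 5 members matched) and GENCODE M21 transcripts (4 of 4 members in the table). Depth per oocyte is given with the results.

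The members and the gene lists were chosen with earlier results of these data known. The named genes are the members, per list the 4 called genes with the smallest p in the fresh stage comparison, 13 genes chosen for their roles, and per member the 3 genes most correlated by each measure. Tcf4, Ldb2 and Taf9b were added after their values were seen.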

Additional observations from a re-analysis of the deposited data

Results flagged for a closer look

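Lhx8 in GV oocytes of vitrified follicles had 1 oocyte far from the others. Replicate 4 had 92.8 CPM, while the other 3 had 65.7, 68.1 and 64.9 CPM. The gap to the nearest oocyte was above Dixon's 95% critical value for 4 samples. Chance flags about 1 group in 20, and the value lies within the range of the fresh GV oocytes, which was 76.2 to 93.9 CPM.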

How the results depend on the processing

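The calls on the members were the same under each alternative run: 3 of 4 in either stage comparison and 0 in the others. Over 44 alternatives, the stage difference ran from -7.80 to -5.86 (vitrified) and -7.16 to -6.01 (fresh) for Figla, from -2.55 to -1.90 and -2.06 to -1.50 for Nobox, and from -2.27 to -1.51 and -2.30 to -1.68 for Lhx8, with a largest adjusted p of 3.72e-04 in edgeR, DESeq2 or limma. For Taf4b it ran from -0.76 to 0.11 and from -0.47 to 0.63, and the smallest adjusted p was 0.169.

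Differences that changed sign were all below the threshold, and the cause was not tested. Nobox in vitrified against fresh GV oocytes was 0.012 with no filter and -0.12 to 0.20 with 1 oocyte left out. Taf4b in vitrified against fresh MII oocytes was -0.13 with library numbers under 20. Taf4b in MII against GV oocytes of fresh follicles was 0.090 with limma-voom, 0.19 with the replicate block, 0.037 with library numbers under 20, and -0.30 to 0.63 with 1 oocyte left out, and in vitrified follicles it was 0.11 with numbers of 20 and over. The interaction of Figla was 0.050 with RLE, 0.045 with DESeq2, 0.0012 with the stricter filter and 0.14 with numbers under 20. With 1 oocyte left out it was -0.30 to 0.17. That of Lhx8 was -0.025 with numbers under 20 and -0.0027 without the 4 oocytes left out for cumulus transcripts. That of Taf4b was 0.13 with numbers of 20 and over and -0.90 to 0.052 with 1 oocyte left out. The Nobox to Lhx8 ratio in vitrified follicles was -0.37 to 0.035 with 1 oocyte left out.

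Over all genes, the calls for vitrified against fresh MII oocytes were 0 in edgeR (1053 at an unadjusted p under 0.05), 1 with total counts only, with the stricter filter or in the fit of all oocytes, 52 with DESeq2, and 0 to 1 with 1 oocyte left out (1 without fresh MII replicate 6 or 8). For the interaction they were 0 in edgeR (467 unadjusted), 3 with RLE, 8 with DESeq2, 2 with the stricter filter and 0 to 4 with 1 oocyte left out (4 without fresh GV replicate 2). With total counts only, the calls between stages split into 1945 higher and 4703 lower in vitrified and 1992 and 4142 in fresh follicles, against 2678 and 3861, and 2615 and 3413. That scale moved the median of all genes to -0.81 (vitrified) and -0.61 (fresh). The share of genes with TTTTAT or TTTTAAT in the last 150 bases, a window added after the data were seen, was 39.0% of those that rose, 14.2% of those that fell, 25.9% of those not called and 25% of all in vitrified follicles, and 38%, 14.4%, 25.4% and 25% in fresh ones.

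Among vitrified and fresh oocytes that share a replicate number, 6 of 12 MII pairs and 2 of 4 GV pairs had a correlation over 0.1. The correlations ran from -0.50 to 0.48 in MII pairs and from -0.59 to 0.41 in GV pairs. Oocytes with unlike numbers were not compared, so whether the numbers pair oocytes cannot be told. With the number as a replicate block, 5924 genes were called between stages in vitrified and 5427 in fresh follicles, 0 for vitrified against fresh at either stage and 0 for the interaction, and the members called were unchanged. Depth limits Figla in MII oocytes, where at most 14 counts per oocyte set its level.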
